A study of Mus musculus with 16 samples.

Results

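The genes described here are ABCA lipid transporters of the Abca8 type, namely Abca8a, Abca8b, Abca9 and Abca6, which lie side by side on mouse chromosome 11. They were taken from a list of 5 ABCA genes by the platform's gene symbol, and where a gene has several probe sets the brightest on average stood for it. Of the 5 listed genes, 4 had a probe set of that symbol, out of 17097 genes with a probe set on the array. The fifth, Abca1, had none under that symbol in the annotation used and was not analysed here. The list was selected on these data, with the loss of signal in culture already known, so the culture difference of its members is described below without a test.

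The arrays compared dermal fibroblasts, which make the collagen matrix of skin, from female C57Bl/6 mice, a common inbred laboratory strain, to ask how an age difference seen in freshly isolated cells relates to that seen after culture. The 4 groups were old cultured, young cultured, old in vivo and young in vivo, with 4 arrays each, where old means 18 months, young means 2 months, and in vivo is the labels' word for cells profiled straight after isolation. No genotype or treatment other than age and culture is named, and each mouse gave 1 sample of either kind, but samples cannot be tied to their mouse from the labels. RNA came from 5000 cells per sample and was amplified over 23 cycles. Passage, medium, the act of plating and time cannot be told apart, as the labels describe none of them.

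ABC transporters use ATP to move substrates across membranes, and the ABCA subfamily is known for lipids. ABCA1 loads cholesterol and phospholipid onto apolipoprotein A-I, and its transcription is switched on by the liver X receptors (LXR), nuclear receptors that sense oxidised sterols. Human ABCA8 has been linked to cholesterol efflux and, in oligodendrocytes, to sphingomyelin production. The human counterparts of Abca5, Abca6 and Abca9 sit in the same gene cluster, and the substrates of ABCA6 and ABCA9 are poorly known.

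The cluster lies on the minus strand. In GRCm38.p6 Abca8b spans chr11:109932206-109996274, Abca8a chr11:110025634-110097580, Abca9 chr11:110100749-110168274 and Abca6 chr11:110174638-110251776, with Abca5 next at chr11:110269369-110337723. The RefSeq promoter windows run over 300 bases, from 250 before to 50 after the listed transcript start. The windows of Abca8a and Abca8b lie wholly inside the gene spans given above, and those of Abca9 and Abca5 reach past the 5′ end. Such a window was found for 4 of these 5 genes, Abca6 being the exception. They are printed 5′ to 3′ for 3 genes with low signal in culture and for Abca5, their neighbour without it. Capitals mark the E-box CACGTG and the GC box GGGCGG, read on both strands.
Abca8a, chr11:110095888-110096187: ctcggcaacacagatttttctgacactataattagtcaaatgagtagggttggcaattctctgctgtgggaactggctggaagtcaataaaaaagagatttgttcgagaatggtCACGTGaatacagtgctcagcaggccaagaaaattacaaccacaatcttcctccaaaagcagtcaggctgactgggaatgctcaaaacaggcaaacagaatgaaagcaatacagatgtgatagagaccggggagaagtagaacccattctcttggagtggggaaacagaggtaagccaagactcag
Abca8b, chr11:109995796-109996095: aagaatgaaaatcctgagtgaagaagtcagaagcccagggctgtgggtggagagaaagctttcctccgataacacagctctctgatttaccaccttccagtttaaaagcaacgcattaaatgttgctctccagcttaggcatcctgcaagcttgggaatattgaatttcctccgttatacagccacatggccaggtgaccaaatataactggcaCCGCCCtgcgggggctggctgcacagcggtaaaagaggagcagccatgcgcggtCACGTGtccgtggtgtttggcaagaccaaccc
Abca9, chr11:110168104-110168403: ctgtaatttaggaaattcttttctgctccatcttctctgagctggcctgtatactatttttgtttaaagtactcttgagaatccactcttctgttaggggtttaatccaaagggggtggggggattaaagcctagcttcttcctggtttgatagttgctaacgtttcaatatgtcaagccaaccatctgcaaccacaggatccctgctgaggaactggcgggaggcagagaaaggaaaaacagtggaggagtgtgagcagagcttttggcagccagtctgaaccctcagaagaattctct
Abca5, chr11:110337667-110337966: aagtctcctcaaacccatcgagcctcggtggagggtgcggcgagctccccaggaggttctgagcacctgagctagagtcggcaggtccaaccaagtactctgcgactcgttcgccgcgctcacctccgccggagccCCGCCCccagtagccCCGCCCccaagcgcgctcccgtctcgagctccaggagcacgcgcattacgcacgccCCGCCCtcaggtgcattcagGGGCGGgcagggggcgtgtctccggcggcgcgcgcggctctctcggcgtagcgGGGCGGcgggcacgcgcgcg

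The windows of the members were poorer in G and C than that of Abca5, but the windows are not placed alike. Those of Abca8a and Abca8b lie wholly inside their gene spans, and that of Abca5 reaches past its gene's 5′ end. The GC content was 44.3% for Abca8a, 51.3% for Abca8b and 45.3% for Abca9, and 72.3% for Abca5, with a median of 52.7% over all 32851 promoter windows of the table. The Abca5 window held 40 CpG dinucleotides, against 4 for Abca8a, 10 for Abca8b and 2 for Abca9, with a median of 7 over all windows. The letters CACGTG, which bHLH factors can bind, occurred once each in the Abca8a and Abca8b windows, and in 7.15% of all windows. The GC box occurred 5 times in the Abca5 window, once in that of Abca8b, and at least once in 35.7% of all windows. TGANTCA (7.81% of all windows), AGGTCA (16.3%), TATAAA (13.6%) and CCAAT (37.4%) were in none of the 4 windows. The LXR element by its name, a direct repeat of AGGTCA with a spacer, was in none of them either, and 5 of all windows held it. GGAATG, the letters read by TEAD factors, was in the Abca8a window and in 14.7% of all windows. These matches are letters in a window and say nothing about binding.

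All signals below are deposited log2 values, on which a difference of 1 is a doubling, and levels of different genes are not set against each other because each probe set has its own brightness. As a guide to background, poly-A control probe sets of the array had a 95th percentile of 4.34. The fibroblast markers (Col1a1, Col1a2, Col3a1, Pdgfra, Dcn, Lum, Dpt, Col6a1 and Vim) averaged 9.42 to 9.60 in old cultured, 9.37 to 9.70 in young cultured, 10.71 to 10.83 in old in vivo and 10.86 to 10.92 in young in vivo arrays, far above that guide in every group. Median signals per array were 4.74 to 4.92. The 16 arrays limit the precision, and with no tie of samples to mice the p-values measure the spread between samples.

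Abca8a had the largest difference of the 4 between the conditions. It read 5.46, 5.36, 5.21 and 5.35 in old cultured and 5.57, 5.39, 5.39 and 5.50 in young cultured arrays. It read 10.53, 9.86, 10.20 and 9.16 in old in vivo and 9.69, 9.86, 9.62 and 9.93 in young in vivo arrays. No cultured array came near an in vivo array, and the cultured arrays lay within 0.36 of each other while the old in vivo arrays spread over 1.37. The difference of cultured minus in vivo was -4.45 ± 0.14 (SE of the fit over 16 arrays), which is 21.9-fold lower, and it ranked 14 from the lowest of 14819 tested genes. The difference was -4.59 in old and -4.31 in young cells. In bulk samples such as these, fewer cells that make a transcript and less of it per cell cannot be told apart.

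Abca9, the next gene along the chromosome, was lower in culture too. It read 5.02, 4.50, 4.73 and 4.49 in old cultured and 4.92, 4.68, 4.63 and 4.51 in young cultured arrays, against 7.80, 8.29, 8.35 and 8.65 in old in vivo and 8.55, 8.34, 8.45 and 8.89 in young in vivo arrays. All cultured values stood close above the background guide. The difference was -3.73 ± 0.12, or 13.3-fold lower, at rank 58 from the lowest, with -3.59 in old and -3.87 in young cells. Abca9 has a second, dim probe set, and there the groups overlapped. Its means were 4.24 in old cultured, 4.14 in young cultured, 4.48 in old in vivo and 4.50 in young in vivo arrays. With both probe sets averaged the difference was -2.02, so the size given for Abca9 rests on its brighter probe set.

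Abca6 was lower in culture as well. It read 3.40, 3.52, 3.60 and 3.76 in old cultured and 3.57, 3.66, 3.69 and 3.74 in young cultured arrays, and 5.35, 4.99, 4.91 and 4.89 in old in vivo and 4.80, 4.92, 4.75 and 4.87 in young in vivo arrays. Every cultured array was below the background guide and every in vivo array above it. With cultured arrays set at the guide, Abca6 was at least 1.51-fold lower in culture, a bound that depends on a guide taken from other probe sets. Its measured differences are limited by background and are not read as sizes.

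Abca8b, the close paralog of Abca8a, stayed near or below the background guide in every group. It read 3.21, 3.14, 3.29 and 3.17 in old cultured and 3.02, 3.21, 3.13 and 3.15 in young cultured arrays, against 4.42, 3.87, 4.19 and 3.51 in old in vivo and 3.87, 4.05, 3.78 and 3.91 in young in vivo arrays. A single array, old in vivo replicate 1, exceeded the guide, so no size of difference is given.

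In all 4 genes every cultured array lay below every in vivo array, a pattern that 21.2% of all tested genes had. By the test over all genes, 44.7% of genes were lower and 34.8% higher in culture. The list was chosen by this contrast, so nothing is read from the members' count. The 4 genes passed the filter on dim genes (at least 4 arrays above 3.87), Abca6 and Abca8b through in vivo arrays alone. The values beside this contrast moved too. The 3′ minus 5′ signal of beta-actin, a sign of RNA and amplification quality, was 0.03 to 0.18 in old cultured, 0.03 to 0.13 in young cultured, -0.56 to -0.31 in old in vivo and -0.49 to -0.32 in young in vivo arrays. Of the 9 fibroblast markers 8 fell, led by Lum at -4.64 ± 0.11 and Dpt at -2.85 ± 0.08, and Vim did not pass. Markers of other cell types also moved. Of the macrophage markers 6 of 7 tested fell, with list means of 4.23 to 4.31 in old cultured, 4.21 to 4.33 in young cultured, 4.84 to 4.88 in old in vivo and 4.82 to 4.995 in young in vivo arrays. Of the endothelial markers 5 of 7 fell, led by Tek at -2.72 ± 0.25 and Kdr at -2.35 ± 0.20, with list means of 4.00 to 4.29 in old cultured, 4.15 to 4.21 in young cultured, 4.96 to 5.36 in old in vivo and 4.86 to 5.001 in young in vivo arrays. All 5 tested melanocyte markers, all 5 of T cells, all 3 of leukocytes, 4 of 6 of keratinocytes and 2 of 3 of Schwann cells fell. Many markers were dim. In each in vivo group 3 of 5 T cell, 3 of 6 melanocyte and 5 of 10 macrophage markers with a probe set averaged below the guide. The T cell markers had a median difference of -0.19, where that of all tested genes was -0.11. Of the muscle markers Acta1 rose by 5.01 ± 0.16 and the other 3 tested fell. Of 5 pericyte and smooth muscle markers Myh11 (4.36 ± 0.14) and Mcam (1.84 ± 0.16) rose, Kcnj8 (-3.52 ± 0.14) fell and 2 did not pass. The 1 tested adipocyte marker, Fabp4, rose by 4.32 ± 0.35. Tek (3.98 in old, 3.88 in young) and Kcnj8 (4.17 in old, 4.19 in young) averaged below the guide in culture. Fabp4 did so in young in vivo arrays (3.89), and the sizes given for Tek, Kcnj8 and Fabp4 are limited by background. Whether any of these has a part in the members' differences was not tested.

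**Figure D1:**
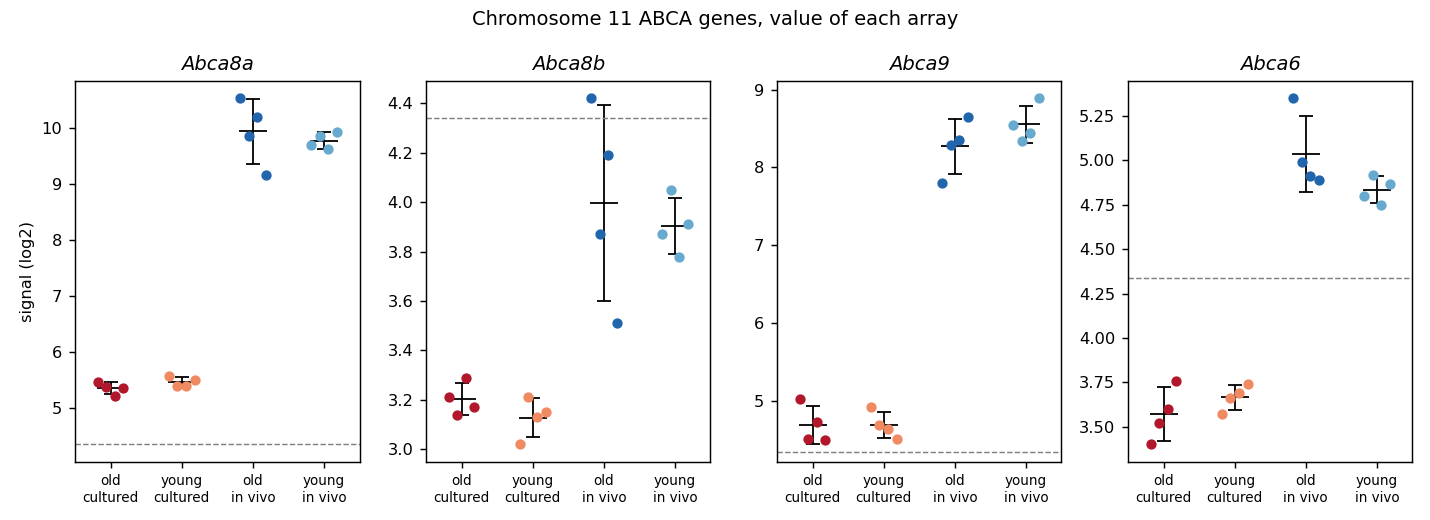
Signal (log2) of each array for Abca8a, Abca8b, Abca9 and Abca6, each on its own vertical scale, with the mean and SD of the 4 arrays of a group in black and the background guide of 4.34 dashed. The cultured groups are below the in vivo groups in each panel, and the old in vivo arrays spread the most for Abca8a and Abca8b.

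No age difference of the 4 genes passed the threshold. In vivo, 1.35% of all tested genes passed the adjusted threshold of 0.05 (limma with Benjamini-Hochberg adjustment over 14819 genes), in culture 0%, and 0.587% for the interaction, computed as old minus young in culture less old minus young in vivo. In culture 533 genes (3.60%) had an unadjusted p under 0.05 by limma, a share below the 0.05 that chance alone would give. In vivo it was 2217 genes (15.0%). All 16 arrays in the limma fit gave a count of 0 in culture as well. The count in vivo rested on single arrays: it was 200 in all, 60 without young in vivo replicate 2 and 306 without old in vivo replicate 1.

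For Abca8a the old in vivo arrays averaged 9.94 ± 0.59 and the young ones 9.78 ± 0.14 (SD, n = 4 each). Their difference was 0.16 (95% interval -0.37 to 0.70), with limma's adjusted p = 0.802 and an exact two-sided permutation p = 0.629. In culture the means were 5.35 ± 0.10 in old and 5.46 ± 0.09 in young cells, with a difference of -0.12 (95% interval -0.29 to 0.05, limma's adjusted p = 0.997, exact permutation p = 0.143). Neither difference exceeded the spread between replicates by the test, and the interaction of -0.28 ± 0.28 had an adjusted p = 0.733 by limma. With 4 against 4 arrays the exact test has 70 labelings and cannot go below 0.0286.

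For Abca9 the old in vivo arrays averaged 8.27 ± 0.35 and the young ones 8.56 ± 0.24 (SD, n = 4 each), and they overlapped. The difference was -0.29 (95% interval -0.68 to 0.11), with limma's adjusted p = 0.510 and exact permutation p = 0.286. In culture both ages averaged 4.69, with SDs of 0.25 in old and 0.17 in young cells, and the interval of the difference was -0.30 to 0.30. The interaction was 0.29 ± 0.24 (limma's adjusted p = 0.677).

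For Abca6 the old in vivo arrays averaged 5.04 ± 0.21 and the young ones 4.84 ± 0.08 (SD, n = 4 each), and they overlapped. The difference was 0.20 (95% interval -0.06 to 0.46), with limma's adjusted p = 0.480 and exact permutation p = 0.0857, the smallest exact p of the 8 age comparisons. In culture the means were 3.57 ± 0.15 in old and 3.67 ± 0.07 in young cells (exact permutation p = 0.343), both below the guide. The interaction of -0.30 ± 0.15 (limma's adjusted p = 0.433) rests on those cultured values.

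For Abca8b the old in vivo arrays averaged 4.00 ± 0.40 and the young ones 3.90 ± 0.11 (SD, n = 4 each). The difference was 0.10 (limma's adjusted p = 0.846, exact permutation p = 0.657). In culture the means were 3.20 ± 0.07 in old and 3.13 ± 0.08 in young cells (exact permutation p = 0.229). The interaction was -0.02 ± 0.20 (limma's adjusted p = 0.981). With all but 1 array below the guide, these values give no age comparison of the transcript itself.

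In each gene, then, the order of groups by mean put both in vivo groups first and both cultured groups last, and the neighbours within a condition did not differ beyond their spread. The intervals for Abca8a and Abca9 in vivo still allow age differences of over 0.6 on the log2 scale.

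**Figure D2:**
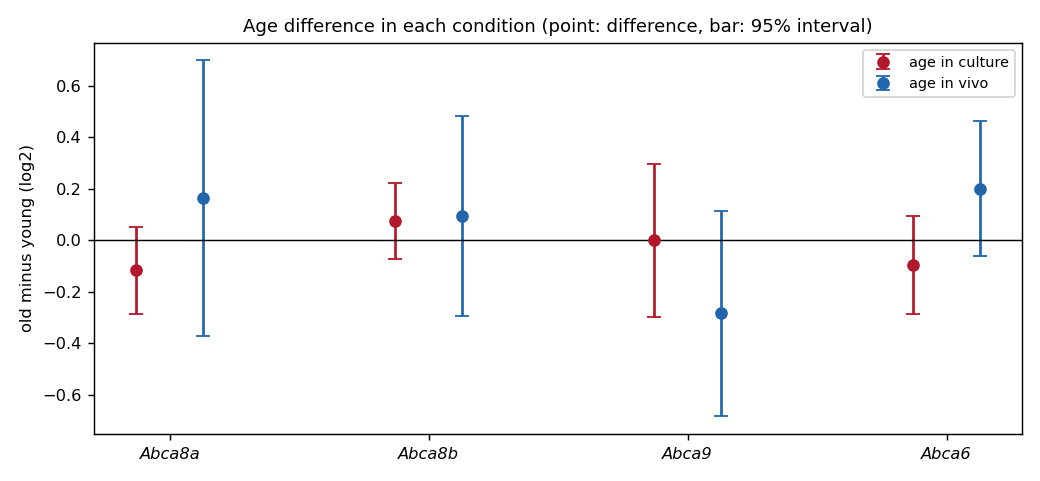
Difference of old minus young (log2) in culture (red, left of each pair) and in vivo (blue, right of each pair) for the 4 genes, with bars for the 95% interval of the limma fit. Every interval crosses 0, and the in vivo interval of Abca8a, -0.37 to 0.70, is wider than its interval in culture, -0.29 to 0.05.

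The old in vivo arrays held most of the spread, and they did not run the same way in the 4 genes. Abca8a and Abca8b had the same array order among them: replicate 1 highest, then replicates 3 and 2, and replicate 4 lowest. Abca9 had its lowest value, 7.80, in replicate 1 and its highest, 8.65, in replicate 4. Abca6 was highest in replicate 1 (5.35) and the other 3 arrays lay between 4.89 and 4.99. Without old in vivo replicate 1 the age difference in vivo of Abca8a was -0.035 and that of Abca8b -0.046, so both signs turned, and without replicate 4 that of Abca8a was 0.42. Abca9 was at -0.13 without replicate 1 and at -0.41 without replicate 4, and Abca6 at 0.095 without replicate 1. None of these passed the threshold.

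Those arrays also differed in markers of other skin cells. Old in vivo replicate 1 had a keratinocyte marker mean of 5.98 (Krt5, Krt14, Krt10, Krt1, Krt15, Cdh1 and Epcam), where the other in vivo arrays had 4.81 to 5.02. Its adipocyte marker mean was 4.51, where the others had 3.57 to 4.00. Old in vivo replicate 4 had an endothelial marker mean of 5.36, where the others had 4.86 to 5.10. Of single markers, the macrophage receptor gene Csf1r was at -1.08, Col1a2 at -0.64 and the pericyte channel gene Kcnj8 at 1.06 (old minus young in vivo), and these 3 passed the test, but their lists did not move as wholes. The other 6 tested macrophage markers (-0.08 to 0.28) and the other 8 of fibroblasts (-0.25 to 0.12) did not pass. Nor did the other 4 of pericytes and smooth muscle (-0.25 to 0.13, with Rgs5, Notch3 and Myh11 below 0). The part of all these markers in the members' values was not tested. Abca8a and Abca8b are close paralogs, and whether the dim Abca8b probe set reads Abca8a RNA was not tested either.

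**Figure D3:**
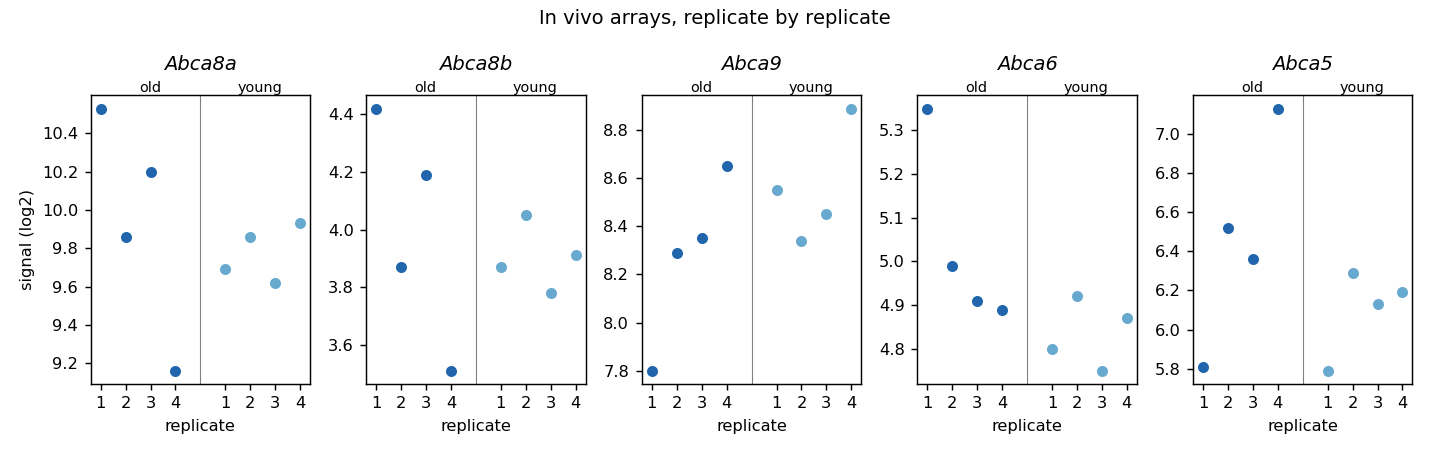
Signal (log2) of the in vivo arrays by replicate number, old on the left and young on the right of each panel, for the 4 genes and Abca5, each on its own vertical scale. Among the old arrays Abca8a and Abca8b are highest in replicate 1 and lowest in replicate 4, and Abca9 and Abca5 the reverse.

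The measured neighbours on the chromosome had smaller decreases than Abca8a and Abca9, or increases. Abca5, the fifth gene of the cluster, whose human counterpart is found in lysosomes and late endosomes, read 6.77, 6.38, 6.44 and 6.54 in old cultured and 6.62, 6.70, 6.68 and 6.41 in young cultured arrays. It read 5.81, 6.52, 6.36 and 7.13 in old in vivo and 5.79, 6.29, 6.13 and 6.19 in young in vivo arrays. The conditions overlapped in old cells, and in young cells every cultured array was above every in vivo array. The difference over both ages, 0.29 ± 0.14, did not pass (limma's adjusted p = 0.0665). In young cells it was 0.50 (limma's adjusted p = 0.0317) and in old cells 0.08 (limma's adjusted p = 0.740). The interaction did not pass (limma's adjusted p = 0.579). The difference over both ages passed without old in vivo replicate 4, at 0.40 with an adjusted p = 0.0033 by limma. It also passed with array weights by condition, at an adjusted p = 0.04999 by limma. Between the ages in vivo Abca5 differed by 0.36 ± 0.24 (limma's adjusted p = 0.534).

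Of the 12 measured neighbours, which are Abca5, the 6 genes before the cluster and the 5 after it, 3 rose, 6 fell and 3 did not pass in culture, with a median of -0.16, where the median of all tested genes was -0.11. Among all tested genes 34.8% rose and 44.7% fell. After cyclic loess 3 of the neighbours fell instead of 6. Of the 6, Map2k6, Kcnj16 and Gm11681 averaged below the guide in both conditions. Sox9, a transcription factor of cartilage and hair follicle, rose by 2.58 ± 0.19, and Fam20a, a partner of a secretory-pathway kinase, by 1.57 ± 0.10. Arsg, a lysosomal sulfatase, was at -0.59 ± 0.08, the most negative difference among the neighbours. 1700012B07Rik, the gene on the Abca8b side of the cluster, was at -0.24 ± 0.06. None of the 12 passed for age in vivo or in culture.

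**Figure D4:**
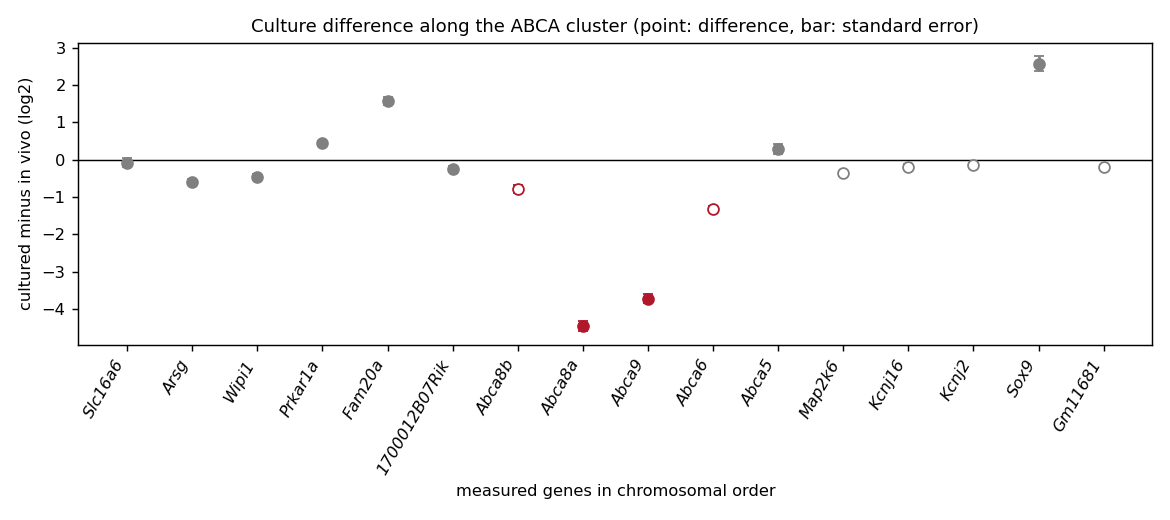
Cultured minus in vivo difference (log2, bars are the standard error) of the measured genes in chromosomal order, with the 4 members in red and 12 neighbours in grey. Open points are genes that averaged below the background guide in culture or in both conditions, whose sizes are not read. Abca8a is at -4.45 and Abca9 at -3.73, and the neighbours are between -0.59 and 2.58.

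The other ABCA genes had smaller differences in culture than Abca8a and Abca9. A probe set was present for 8 of 11 others, of which Abca12, Abca13 and Abca14 did not pass the filter on dim genes. Of the 5 tested, 4 fell in culture, 0 rose and Abca5 did not pass, with a median of -0.67. Over all tested genes 44.7% fell and 34.8% rose. Abca2, a lysosomal transporter of myelinating cells, fell by 1.15 on the log2 scale (SE 0.07, limma's adjusted p = 1.07e-10). Abca7, a phospholipid transporter linked to phagocytosis, was at -0.70 ± 0.07, Abca3, the surfactant lipid transporter of the lung, at -0.67 ± 0.10, and Abca4, the retinoid-lipid transporter of photoreceptors, at -0.50 ± 0.10, and all 3 passed. Abca2 averaged 4.98 in old cultured, 5.04 in young cultured, 6.25 in old in vivo and 6.07 in young in vivo arrays. None of the 5 passed for age in vivo, in culture or in the interaction, with Abca7 at 0.39 ± 0.11 in vivo (limma's adjusted p = 0.123).

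Across all other ABC transporters, the ABCA genes included, 10 of 33 tested genes rose in culture, 19 fell and 4 did not pass. Their median was -0.23. The shares over all tested genes were 34.8% higher and 44.7% lower. Abcd2, which carries very-long-chain fatty acids into peroxisomes, was at -3.28 ± 0.12 and came nearest to Abca9 in size. Abce1, a ribosome recycling factor with no membrane domain, rose by 1.63 ± 0.10, and Abcg1, which passes cholesterol to HDL, was at -1.41 ± 0.25. For age in vivo 1 of the 33 passed, the drug exporter gene Abcb1b, which was 0.70 ± 0.10 higher in old cells (limma's adjusted p = 0.0127). Its young in vivo mean of 4.23 was below the guide. That call rests on its brighter probe set, since the mean over its probe sets gave 0.27 (adjusted p = 0.199 by limma).

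Of 14 tested partners of sterol and phospholipid efflux, 10 fell in culture, 3 rose and 1 did not pass, with a median of -0.52. Beside this, 44.7% of all tested genes fell and 34.8% rose. Pltp, the phospholipid transfer protein, averaged 7.58 in old cultured, 7.69 in young cultured, 11.12 in old in vivo and 10.60 in young in vivo arrays, a difference of -3.23 ± 0.11. Apoe, the apolipoprotein that accepts cellular lipid, was at -2.88 ± 0.27, and Cyp27a1, which makes 27-hydroxycholesterol, at -2.53 ± 0.10. Stard4, a cytosolic sterol carrier, rose by 2.24 ± 0.12 and Scarb1, an HDL receptor, by 2.07 ± 0.11.

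Among the LXR and RXR receptors and cofactors, 4 of 5 tested genes fell and 1 rose, with a median of -0.67. For this list and the next, the shares over all tested genes were 44.7% lower and 34.8% higher. Nr1h3, which encodes LXR alpha, averaged 5.59 in old cultured, 5.46 in young cultured, 6.62 in old in vivo and 6.54 in young in vivo arrays, a difference of -1.06 ± 0.10. Its partner Rxra was at -0.67 ± 0.09 and the coactivator Ncoa1 at -1.90 ± 0.10. Rxrg passed as lower too, with cultured means below the guide (3.90 in old, 3.77 in young). Rxrb was at 0.29 ± 0.13 (limma's adjusted p = 0.0473), a call lost in 15 of 22 alternatives, among them scaling to the 75th percentile, where it was at 0.09. Of 11 other LXR targets, 8 fell, 1 rose and 2 did not pass, with a median of -0.65. This list is not separate, as Abcg1, Apoe and Pltp are also efflux partners and Nr1h3 is also among the receptors. Of those that fell, Abcg5 averaged below the guide in every group. Abcg8 did so in culture (4.325 in old, 4.31 in young). Besides Pltp and Apoe, Mylip, which tags the LDL receptor for breakdown, was at -2.34 ± 0.17, and Lpcat3, a phospholipid remodelling enzyme, was the 1 that rose, by 0.65 ± 0.14 (2 rose without young in vivo replicate 1). In old in vivo cells the LXR target Smpdl3a, a phosphodiesterase of the sphingomyelinase family, was 0.76 ± 0.15 higher (limma's adjusted p = 0.0449). That age call was lost in 9 of 14 alternatives, 6 of them single arrays left out (young in vivo replicates 1 to 3, old in vivo replicates 2 to 4), with limma's adjusted p of up to 0.114.

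Of 9 tested genes of sterol synthesis and uptake, 4 rose in culture, 2 fell and 3 did not pass, with a median of 0.11. Over all tested genes 34.8% rose and 44.7% fell. Sqle, the squalene epoxidase, averaged 8.43 in old cultured, 8.46 in young cultured, 4.95 in old in vivo and 4.33 in young in vivo arrays, a rise of 3.80 ± 0.22. Its young in vivo mean was just below the guide, so that size is limited by background. Idi1, an enzyme of isoprenoid synthesis, rose by 2.47 ± 0.26 and Vldlr, a lipoprotein receptor, by 2.26 ± 0.11. Under scaling to the 75th percentile and under cyclic loess 4 genes of this list fell instead of 2.

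Sphingomyelin and ceramide synthesis was listed because human ABCA8 has been tied to sphingomyelin. It had 12 of 18 genes higher, 3 lower and 3 not past the threshold, with a median of 0.44. Among all tested genes 34.8% were higher and 44.7% lower. Cers6, a ceramide synthase, averaged 10.67 in old cultured, 10.67 in young cultured, 7.16 in old in vivo and 7.70 in young in vivo arrays, a rise of 3.24 ± 0.13. Kdsr, which acts early in the pathway, rose by 1.73 ± 0.07 and Ugcg, the glucosylceramide synthase, by 1.16 ± 0.13. The sphingomyelin synthases split, with Sgms2 at 0.90 ± 0.15 and Sgms1 at -0.30 ± 0.09. Under scaling to the 75th percentile 5 genes of the list fell instead of 3. Ormdl1, which restrains the first step of the pathway, was also 0.82 ± 0.12 higher in old in vivo cells, against young ones (limma's adjusted p = 0.0155), a call lost without young in vivo replicate 2 (adjusted p = 0.0566 by limma).

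Genes of the adventitial or universal fibroblast state, a progenitor-like class marked by Pi16, Dpp4 and Cd34, were lower in culture throughout. All 12 tested genes fell, with a median of -3.08, and in 11 of the 12 every cultured array was below every in vivo array. Over all tested genes 44.7% fell, and 21.2% had every cultured array below every in vivo array. Scara5, a ferritin receptor, was at -4.68 ± 0.09, Cd34 at -4.12 ± 0.11 and Penk, the proenkephalin gene, at -4.05 ± 0.16. Col14a1, a fibril-associated collagen, was the 1 gene of the list that passed for age in vivo, at -1.57 ± 0.26 (limma's adjusted p = 0.0216). The call was lost without young in vivo replicate 2, 3 or 4 or old in vivo replicate 4 (adjusted p of up to 0.0749 by limma). The list was chosen with results of these data known, and its count is no independent evidence of a direction.

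**Figure D5:**
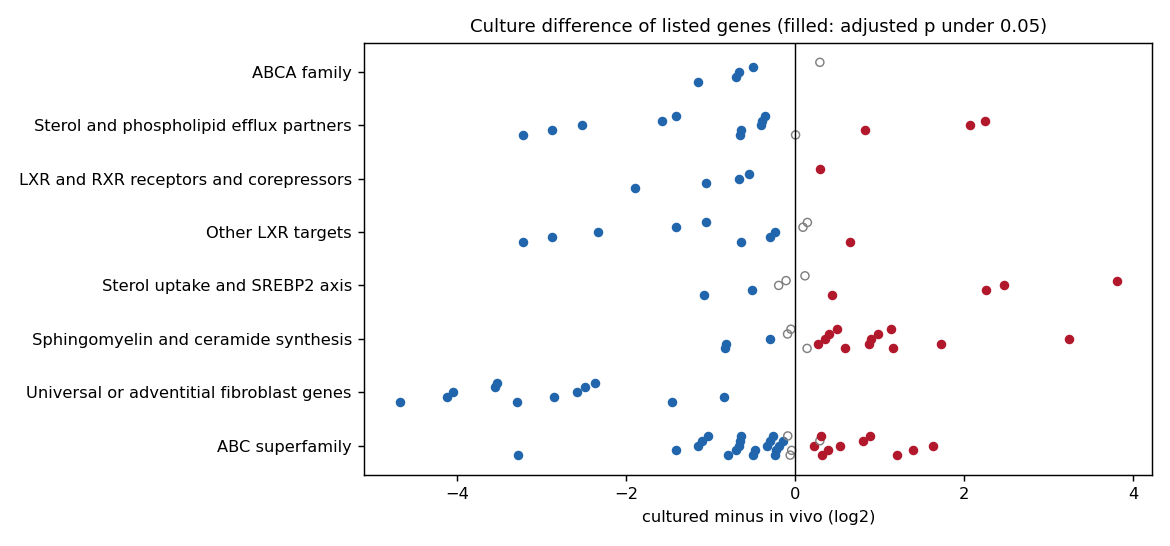
Cultured minus in vivo difference (log2) of each tested gene, by gene list, with filled points for an adjusted p under 0.05 (blue lower, red higher in culture) and open grey points for the rest. The universal fibroblast genes are all below 0, and the sphingomyelin and ceramide list has 12 genes higher and 3 lower. Of all tested genes 34.8% were higher and 44.7% lower.

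The genes most like each member over the 16 arrays were found by the root mean square difference of mean-centred log2 values. For Abca8a they were Casp4, an inflammatory caspase (0.257), H2-Q4, a class Ib histocompatibility gene (0.277), and Olfml1 (0.281). These 3 were at -4.17, -4.34 and -4.59 in culture. For Abca9 they were Dpp4, a surface peptidase and one of the universal fibroblast genes listed (0.218), Tril (0.244) and the growth factor receptor gene Fgfr4 (0.253). For Abca6 they were Itgb2, the leukocyte integrin beta chain (0.136), Pf4, a chemokine of platelets and macrophages (0.138), and Mbd2, a reader of methylated DNA (0.142). For Abca8b, which was near or below the guide in every group, they were Ccno (0.102), Kbtbd11 (0.127) and 2610024D14Rik (0.133). All 16 arrays share the step between the conditions, so likeness here is mostly likeness in that step.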

How the data were processed

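The deposited table held log2 values made by the authors, with RMA and the package affy named without version, per the submitters' processing notes. The base of the logarithm is not stated and was inferred from how far the values range. RMA is meant to equalise distributions between arrays, but the deposited values were not fully level, with array medians of 4.74 to 4.92. Changes are relative to other genes on the array, depend on the scaling and are understated near background. Of 45141 probe sets, 28898 had 1 gene symbol in the platform annotation, 551 several and 15692 were not listed.

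The probe set with the highest mean stood for its gene, and 14819 genes with at least 4 of 16 arrays above 3.87 (the 25th percentile of all values) were tested with limma 3.58.1 in R 4.3.3 (lmFit, eBayes, two-sided, Benjamini-Hochberg, threshold 0.05). Age was fitted on the 8 arrays of a condition, culture and interaction on all 16. The steps were tested on simulated data. Samples could not be tied to mice, so no block was fitted.

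Members and lists were chosen with earlier results of these data known. The text names the members, every ABCA and LXR receptor gene, of other lists the 3 largest changes past the threshold, and for each member the 3 genes most like it. Stard4, Scarb1, Lpcat3, Abcg5, Abcg8, Hmgcs1, Sgms1, Sgms2, Map2k6, Kcnj16, Gm11681, 1700012B07Rik and single cell type markers were named after their values were seen. Promoter sequences are those of RefSeq, GRCm38.p6. Alternatives were no filter, 2 other scalings, the mean over probe sets, eBayes with trend, all arrays for age, array weights, and leaving out each array.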

Additional observations from a re-analysis of the deposited data

Results flagged for a closer look

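In old in vivo cells Abca7 had 1 array apart from the other 3: replicate 3 read 5.92, and the others 6.26 to 6.29 (log2). Of 48 groups of 4 arrays checked in this way this was the 1 that stood out, and chance alone flags about 1 in 20 groups.

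Col14a1 differed between the conditions in its age difference, with an interaction of 1.59 ± 0.34 (limma's adjusted p = 0.0461). It averaged 5.61 in old and 5.59 in young cultured cells, and 8.34 in old and 9.91 in young in vivo cells. The interaction no longer passed in 13 of 22 alternatives, with limma's adjusted p of 0.0133 to 0.103.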

How the results depend on the processing

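In culture the measured difference of Abca6, whose cultured arrays are below the guide, was -1.16 after cyclic loess and -1.52 with scaling to the 75th percentile, and Abca9 was at -2.02 with the mean over its probe sets. Scaling to the 75th percentile moved the median of all genes in culture to -0.31, against -0.11, and the share of higher among called genes to 32.5%, against 43.7%. For age in vivo that share was 67.5%, and it was 43.9% with the 75th percentile and 51.1% with cyclic loess; for the interaction it was 33.3%, 55.9% and 45.2%.

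The count of genes past the threshold for age in vivo was 200, and 900 with all 16 arrays in the fit; leaving out 1 array gave 60 to 306. The interaction count was 87, with 44 to 200 on leaving out 1 array. Without single arrays the age difference in vivo was -0.035 to 0.42 for Abca8a, -0.046 to 0.26 for Abca8b, -0.41 to -0.13 for Abca9 and 0.095 to 0.25 for Abca6. The interaction was -0.54 to -0.08 for Abca8a, 0.13 to 0.41 for Abca9 and -0.36 to -0.19 for Abca6. The Abca8b interaction was 0.06 with the 75th percentile and -0.18 to 0.12 on leaving out 1 array. The causes were not tested. No alternative brought a member past the threshold for age, and the age count in culture stayed 0 in every alternative run. No paired analysis was possible because the labels do not tie samples to a mouse. Of 1046 values of other named genes under alternatives, 43 lost and 6 gained the threshold, among them Rxrb, Smpdl3a and Col14a1. Dim signal limits Abca8b and the cultured values of Abca6.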
